A study of Mus musculus with 8 samples.

Results

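The genes encoding the CHD chromatin remodelers (Chd1, Chd2, Chd3, Chd4, Chd6, Chd7, Chd8, Chd9 and Chd1l) and the related motor Smarca5 were examined in RNA from immature myeloid cells (IMCs) lacking PARP1 or PARP2. These 10 genes, of 24062 in the count table, were chosen by family membership, and the family was selected on a measured value of 1 of them: Chd3 had been called in both deletions by edgeR's likelihood-ratio test. The Chd3 values in those contrasts are therefore given as a description, without a test, and the other 9 genes were tested. IMCs were expanded ex vivo for 3 days with 40 ng/mL M-CSF from bone marrow of 2-month-old C57BL/6 mice. PARP1 WT cells carried PARP1 flox/flox without Cre, and PARP1CKO cells carried PARP1 flox/flox with lysozyme-Cre. PARP2 WT cells carried PARP2 flox/flox without Cre, and PARP2CKO cells carried PARP2 flox/flox with lysozyme-Cre. Each of the 4 groups had 2 libraries, which the labels call biological duplicates without saying how many mice each represents, so p-values measure the spread between these libraries. Lysozyme-Cre acts in the myeloid lineage, so other marrow cells in a culture would keep the floxed gene, and no group carried Cre without floxed alleles or floxed alleles of both genes.

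Remodelers of this class use ATP to slide, evict or restructure nucleosomes, and they differ in the histone marks, DNA damage signals or partner proteins that bring them to chromatin. PARP1 and PARP2 build chains of poly-ADP-ribose (PAR) at broken DNA. Chd1l, also called ALC1, is the family member with a macrodomain, a fold that binds PAR, and it is switched on by that binding. Chd4 and Smarca5 also gather at PAR-marked breaks, which links these motors to the enzymes deleted here.

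The libraries held 37852450 to 61845125 counts, and all 10 genes passed the expression filter that kept 13197 genes for testing. Levels are given as CPM, which are counts scaled to library size with TMM factors, and where genes are compared with each other they are CPM per kb of annotated exon. Parp1 fell by 1.75 on the log2 scale in PARP1CKO (SE 0.178, edgeR quasi-likelihood adjusted p = 0.0134), and Parp2 fell by 0.91 in PARP2CKO (SE 0.0453, adjusted p = 0.000139). The Parp1 call, but not its size, was lost without PARP1 WT replicate 1, PARP1 WT replicate 2 or PARP1CKO replicate 2, with log2 fold changes of -1.79, -1.73 and -1.71. Parp1 was uneven in PARP2 WT, at 251 and 155 CPM, where neither library carried a deletion.

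Markers of the cell types such a culture could hold were summed in each library, and their genes were read against the shares of all genes called by the quasi-likelihood test (0.106% with PARP1 and 0.0530% with PARP2 deletion) or at an unadjusted p under 0.05 (11.3% and 4.83%). Summed CPM of 10 monocyte and macrophage markers was 10210 and 11020 in PARP1 WT against 8300 and 8901 in PARP1CKO, and 14450 and 15600 in PARP2 WT against 11910 and 10620 in PARP2CKO. Lyz2, the gene into which lysozyme-Cre is inserted, was lower in the CKO libraries of both lines, at 3495 and 4334 CPM against 5712 and 6387 in PARP1 WT and at 6742 and 5747 against 9725 and 10800 in PARP2 WT. The other 9 markers summed to 4502 to 5172 CPM in every library, and no listed marker in the table was at 0 in all libraries. Of the 10 monocyte and macrophage markers, 5 were higher and 5 lower in each deletion. With PARP1 and PARP2 deletion 3 and 4 of them had an unadjusted p under 0.05, and 0 were called by the quasi-likelihood test. Neutrophil markers summed to 2594 to 3312 CPM, with 8 of 10 lower in PARP2CKO (median log2 fold change -0.18, 3 at an unadjusted p under 0.05, 0 called by the quasi-likelihood test). T and NK cell markers summed to 2.12 to 3.31 CPM. Erythroid markers were at 13.1 and 14.3 CPM in PARP1 WT against 15.5 and 19.97 in PARP1CKO, and at 11.5 and 8.42 in PARP2 WT against 8.80 and 9.09 in PARP2CKO. Of 9 erythroid markers tested, 7 were higher with PARP1 deletion and 7 lower with PARP2 deletion, with median log2 fold changes of 0.36 and -0.32, 2 and 2 at an unadjusted p under 0.05 and 0 called. The signs of Chd3 were also those of 7 and 6 of 7 B cell markers tested (medians 0.27 and -0.18). Both T and NK cell markers tested had them too (0.25 and -0.52). In these lists 0 had an unadjusted p under 0.05 and 0 were called. The share of all genes with those signs was not counted. In PARP2 WT against PARP1 WT, 7 of 7 B cell, 8 of 9 erythroid and 1 of 2 T and NK cell markers were lower, while Chd3 was higher. Stem and progenitor cell markers were at 100.5 and 108 CPM in PARP1 WT against 82.8 and 95.4 in PARP1CKO, and at 79.3 and 77.0 in PARP2 WT against 69.4 and 76.2 in PARP2CKO. Granulocyte progenitor markers were at 263 to 311 CPM in the PARP1 line and at 359 to 406 in the PARP2 line. All 5 of them were higher in PARP2 WT than in PARP1 WT, 5 at an unadjusted p under 0.05 and 2 called, against 18.9% and 3.16% of all genes. In the same comparison 6 of 7 B cell markers tested were called lower, with a median log2 difference of -1.81. Among the other lists, 2 of 5 osteoclast and 1 of 10 monocyte and macrophage markers were called higher. Called lower were 2 of 10 neutrophil, 2 of 9 erythroid and 1 of 6 stem and progenitor cell markers. Proliferation markers were at 2045 to 2216 CPM in all libraries. Osteoclast markers were at 153 and 158 CPM in PARP2 WT against 199 and 183 in PARP2CKO, and at 75.7 to 86.3 in the PARP1 line. Basophil and mast cell markers were at 14.6 and 11.6 CPM in PARP2 WT against 7.23 and 9.59 in PARP2CKO, and at 21.2 to 29.0 in the PARP1 line. B cell markers ranged from 27.7 to 41.5 CPM in the PARP1 line and from 7.28 to 10.6 CPM in the PARP2 line. The part of these markers in the results on the 10 genes was not tested. In these bulk samples, fewer cells of a type and less RNA per cell cannot be told apart.

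Promoter sequence was available for 6 of the 10 genes (Chd1l, Chd4, Chd6, Chd8, Chd9 and Smarca5) from RefSeq on GRCm38.p6, as windows of 300 bases with 250 before the start and 50 after it. The 2 windows shown belong to Chd8, the member that varied least over the libraries, and to Chd1l, the PAR-activated member. Capitals mark every CG, the dinucleotide that DNA methylation acts on and that is dense at CpG islands. Chd8 is read from chr14:52257711-52258010 and Chd1l from chr3:97610141-97610440, both on the minus strand and printed 5′ to 3′.
Chd8: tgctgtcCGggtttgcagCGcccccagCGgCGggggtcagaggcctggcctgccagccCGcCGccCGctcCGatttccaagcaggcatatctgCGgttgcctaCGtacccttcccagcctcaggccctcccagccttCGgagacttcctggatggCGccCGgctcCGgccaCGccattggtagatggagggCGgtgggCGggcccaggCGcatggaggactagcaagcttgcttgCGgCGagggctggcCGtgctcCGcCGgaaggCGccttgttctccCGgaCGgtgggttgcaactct
Chd1l: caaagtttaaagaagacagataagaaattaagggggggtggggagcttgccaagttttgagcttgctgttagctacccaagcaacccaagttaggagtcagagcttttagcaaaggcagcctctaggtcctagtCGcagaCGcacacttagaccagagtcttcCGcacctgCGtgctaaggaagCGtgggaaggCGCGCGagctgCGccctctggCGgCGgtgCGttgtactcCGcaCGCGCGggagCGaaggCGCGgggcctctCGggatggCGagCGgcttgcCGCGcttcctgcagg
The Chd8 window holds 26 CG and the Chd1l window 24. The richest window of each of the 6 genes held 19 to 32 CG, against a median of 8 over the richest windows of 27025 genes, of which 30.4% held at least 19. Second windows of Chd4 and Chd9 held 17 and 1. Neither printed window contains TATAAA, on either strand, a sequence present in 13.6% of 32851 windows of all genes. Chd8 has 1 CCAAT and 3 GGGCGG on either strand and Chd1l has neither, against 37.4% and 35.7% of all windows with at least 1. These are counts of letters in the windows and do not show which factors bind there.

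The 10 genes covered a wide range of levels, with Chd4 far above the rest and Chd6 at the bottom. Mean levels per length over the 8 libraries were 46.5 CPM per kb for Chd4, 16.4 for Smarca5, 10.99 for Chd1, 8.94 for Chd8 and 6.50 for Chd2. They were 6.18 CPM per kb for Chd3, 3.48 for Chd1l, 2.87 for Chd9, 2.32 for Chd7 and 2.22 for Chd6. Chd4 alone made up 43.7% of the summed level of the 10 genes and Smarca5 15.4%. The libraries of neighboring genes in this order did not overlap for Chd4, Smarca5, Chd1 and Chd8. Chd2 and Chd3 overlapped, at 6.07 to 6.82 and 4.47 to 8.22 CPM per kb, and so did Chd7 and Chd6, at 2.21 to 2.66 and 2.02 to 2.42. Chd9, at 2.65 to 2.99 CPM per kb, met the top of Chd7, and Chd1l, at 3.07 to 3.74, lay above both. The summed level of all 10 genes was 102 to 110 CPM per kb in every library.

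**Figure D1:**
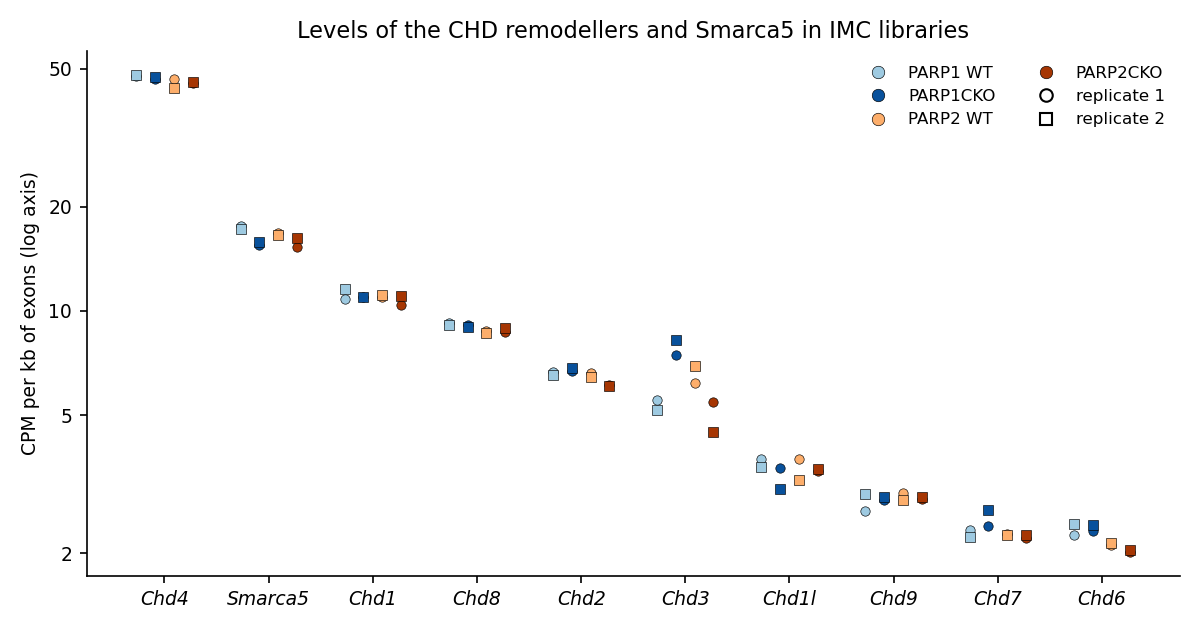
Level of each gene in each of the 8 libraries, as CPM per kb of exon on a log axis, with genes ordered by mean level, colors for the 4 groups, circles for replicate 1 and squares for replicate 2. Chd4 lies between 44.1 and 48.1 CPM per kb and stands above all others, and Chd3 shows the widest spread among its libraries. Differences of Chd3 between these libraries chose the family, so that spread is a description.

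Apart from Chd3, the levels varied about as much as those of other genes. The coefficient of variation over the 8 libraries, groups included, was 2.55% for Chd8 and 7.17% for Chd6, the ends of the range for the 9 tested genes. It was 6.47% for Chd1l, 6.35% for Chd7 and 4.96% for Smarca5. The median was 6.62% over all genes tested and 4.69% over the 7370 genes within the members' range of mean CPM. The highest library exceeded the lowest by a ratio of 1.08 to 1.22 for those 9 genes. Chd3 had a coefficient of variation of 20.5% and a ratio of 1.84. The family was chosen on differences of Chd3 between these same libraries, so its wide spread is a description and not a result.

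Chd3 and Chd4 are alternative ATPases of NuRD, a complex that couples nucleosome remodeling to histone deacetylation. Chd3 (chr11:69343273-69369406, minus strand, GRCm38) was read at 46.7 and 43.7 CPM in PARP1 WT and at 62.8 and 69.4 CPM in PARP1CKO. It was read at 52.2 and 58.6 CPM in PARP2 WT and at 46.2 and 37.7 CPM in PARP2CKO. Both PARP1CKO libraries were above both PARP1 WT libraries, and both PARP2CKO libraries were below both PARP2 WT libraries. Chd3 thus had a log2 fold change of 0.55 with PARP1 deletion and -0.40 with PARP2 deletion, a difference of -0.95 between the deletions, and their mean was 0.08. Opposite, non-overlapping groups in both deletions were present in 6.62% of all genes tested, and because such values chose the gene nothing is read from it. The PARP2 value depended on the library used. It was -0.26 without PARP2CKO replicate 2 and -0.55 without PARP2CKO replicate 1. The mean of both deletions was 0.14 without PARP2CKO replicate 2 and -0.003 without PARP2CKO replicate 1. The PARP1 value stayed between 0.48 and 0.62 when each library was left out in turn. The PARP2 WT level of Chd3 was above the PARP1 WT level in both libraries, a log2 difference of 0.29 between the Cre-free groups. Both WT groups are part of the contrasts that chose Chd3, so this difference is also a description and was not tested. Among the 9 tested genes, the largest changes with PARP1 deletion were -0.15 for Smarca5, 0.15 for Chd7 and -0.14 for Chd1l. The largest with PARP2 deletion was -0.10 for Chd2.

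Chd4 (chr6:125095981-125130591, plus strand), the more abundant NuRD motor, stayed level. It was read at 382 and 386 CPM in PARP1 WT against 374 and 381 in PARP1CKO, and 374 and 353 in PARP2 WT against 366 and 368 in PARP2CKO. Chd4 had a log2 fold change of -0.02 with PARP1 deletion (95% confidence interval -0.12 to 0.07) and 0.01 with PARP2 deletion (-0.08 to 0.11). Without PARP2 WT replicate 1 the PARP2 value was 0.05, and without PARP2 WT replicate 2 it was -0.03. Without PARP1CKO replicate 1 the PARP1 value was -0.01, and without PARP1CKO replicate 2 it was -0.04. Chd3 therefore made up a varying part of the summed Chd3 and Chd4 level per length. That share was 10.4% and 9.71% in PARP1 WT against 13.8% and 14.8% in PARP1CKO, and 11.7% and 13.6% in PARP2 WT against 10.7% and 8.88% in PARP2CKO. The sum itself ran from 50.3 to 55.7 CPM per kb. Across the 8 libraries the log2 CPM of Chd3 and Chd4 had a Pearson correlation of -0.04, a description over libraries that share groups. The remaining CHD motor, Chd5, is not among the 10 genes and had 18 to 46 counts per library.

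**Figure D2:**
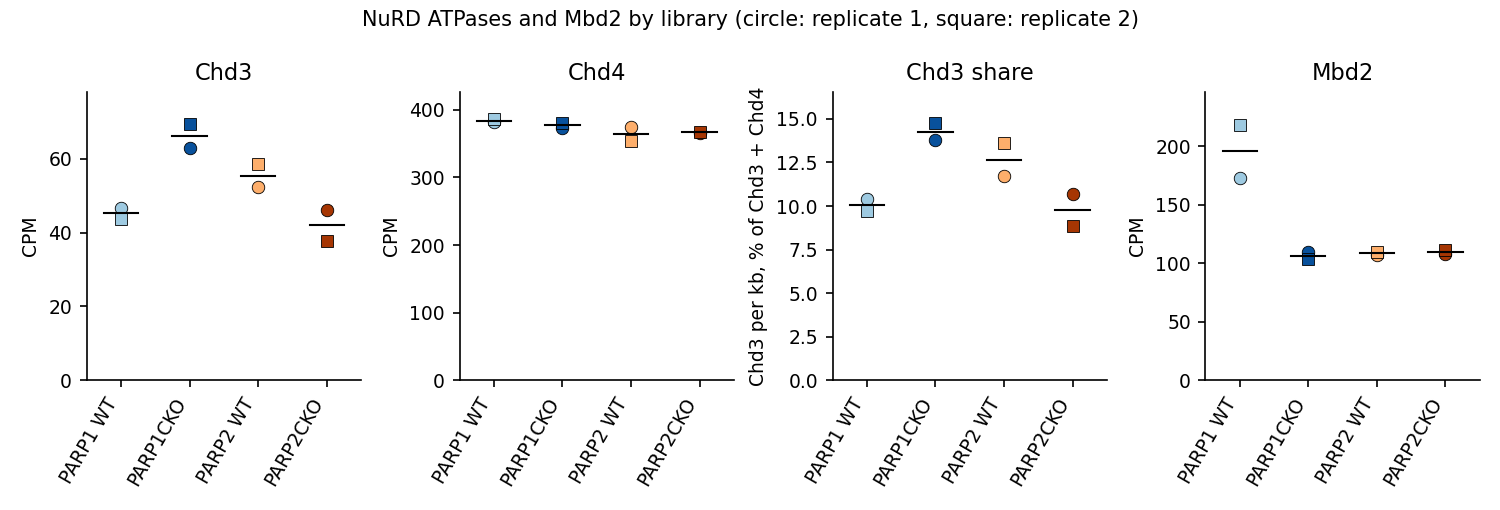
Chd3, Chd4 and Mbd2 in CPM and the Chd3 share of Chd3 plus Chd4 per kb in percent, by group, with a circle for replicate 1, a square for replicate 2 and a line for the mean of the group. All axes start at 0. Chd3 is higher in PARP1CKO than in PARP1 WT and lower in PARP2CKO than in PARP2 WT, while PARP2CKO overlaps PARP1 WT. Chd4 is level, and Mbd2 is high in both PARP1 WT libraries only.

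Of 12 listed NuRD partners, all passed the filter, none rose and 1 fell with PARP1 deletion, and none was called with PARP2 deletion by the quasi-likelihood test, against 0.106% and 0.0530% of all genes. At an unadjusted p under 0.05 there were 4 and 0 of them, against 11.3% and 4.83% of all genes. Their median log2 fold change was -0.02 and -0.01, against 0.01 and -0.00 over all genes. When each library was left out in turn, the PARP1 median ran from -0.08 to 0.0008 and the PARP2 median from -0.02 to 0.01. The partner that fell was Mbd2, which binds methylated CpG and recruits NuRD to it. Mbd2 was read at 173 and 218 CPM in PARP1 WT and at 110 and 103 in PARP1CKO. It was read at 107 and 110 CPM in PARP2 WT and at 108 and 112 in PARP2CKO. Both PARP1 WT libraries lay above all others, and the other 6 libraries were alike. Mbd2 changed with PARP1 deletion by a log2 fold change of -0.88 (SE 0.0915, adjusted p = 0.0134), and PARP2 WT was below PARP1 WT by a log2 difference of -0.85 (adjusted p = 0.00292). With PARP2 deletion it was 0.01 (adjusted p = 0.997), and the difference between the deletions, 0.89, did not pass the quasi-likelihood test (adjusted p = 0.119). The PARP1 call was lost in a fit of only the libraries compared (adjusted p = 0.0540) and without PARP1CKO replicate 2 (0.0538), within a range of 1.09e-20 to 0.0540 over the alternatives. The remaining 11 NuRD partners had log2 fold changes with PARP1 deletion between -0.11 for the deacetylase Hdac2 and 0.10 for Gatad2b, and none passed. Hdac2, Mta3 (-0.10) and the histone chaperone Rbbp4 (-0.08) were, with Mbd2, those at an unadjusted p under 0.05.

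Chd1l (chr3:97560742-97610203, minus strand), the PAR-activated remodeler, was the least counted of the 10. It was read at 16.1 and 15.3 CPM in PARP1 WT against 15.2 and 13.2 in PARP1CKO, and 16.1 and 14.1 in PARP2 WT against 14.9 and 15.1 in PARP2CKO. The PARP1 groups were apart by a narrow margin, as were those of 41.2% of all genes by any margin, and the PARP2 groups overlapped. The log2 fold change was -0.14 with PARP1 deletion (95% confidence interval -0.35 to 0.06, adjusted p = 0.578) and -0.01 with PARP2 deletion (-0.21 to 0.20, adjusted p = 0.998). The PARP1 value was -0.25 without PARP1CKO replicate 1 and -0.05 without PARP1CKO replicate 2. The PARP2 value was 0.10 without PARP2 WT replicate 1 and -0.10 without PARP2 WT replicate 2. The interval of the difference between the deletions ran from -0.15 to 0.42. In each of the deletions the interval was the widest of the 9.

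Smarca5 (chr8:80698507-80739497, minus strand), the ISWI-type ATPase also known as SNF2H, was lower in the CKO libraries than in their WT libraries in both lines. It was read at 137 and 134 CPM in PARP1 WT against 120 and 123 in PARP1CKO, and 131 and 129 in PARP2 WT against 119 and 127 in PARP2CKO. The groups did not overlap in either line, where 41.2% and 37.2% of all genes did not overlap with PARP1 and PARP2 deletion. The share of all genes apart in both lines in the same direction was not counted. The log2 fold change was -0.15 with PARP1 deletion (95% confidence interval -0.25 to -0.06, adjusted p = 0.281 by edgeR's quasi-likelihood test) and -0.08 with PARP2 deletion (-0.17 to 0.02, adjusted p = 0.954). The PARP2 value was -0.04 without PARP2CKO replicate 1 and -0.12 without PARP2CKO replicate 2. Averaged over both deletions it was -0.12 (-0.18 to -0.05, adjusted p = 0.353 by edgeR). None of these passed the adjusted threshold of 0.05. The Smarca5 pseudogene Smarca5-ps had 1 to 8 counts per library. Chd1l stood at 0.194 to 0.227 of the Smarca5 level per length. Of 11 ISWI partners, which include Baz1a, Baz1b and Bptf, none was called in either deletion, and 1 and 0 had an unadjusted p under 0.05, against 11.3% and 4.83% of all genes. Their median log2 fold change was -0.02 with PARP1 deletion and -0.01 with PARP2 deletion. When each library was left out in turn, the PARP1 median ran from -0.06 to 0.03 and the PARP2 median from -0.03 to -0.002.

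**Figure D3:**
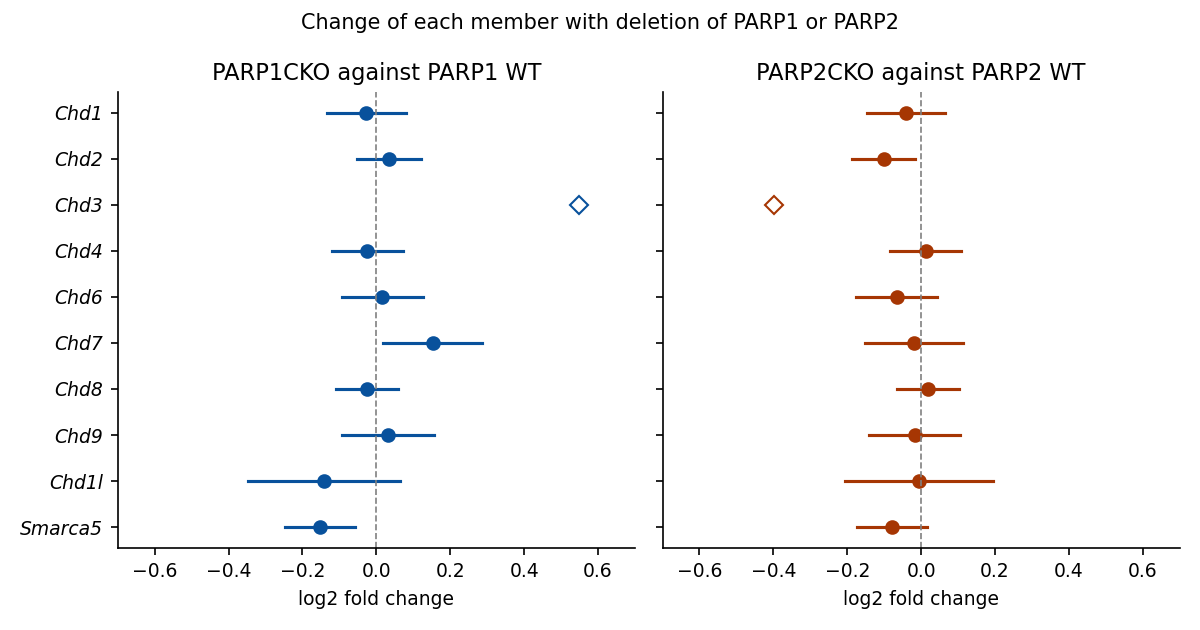
Log2 fold change of each gene with deletion of PARP1 (left) and of PARP2 (right). Filled points with bars are estimates with 95% confidence intervals, and the open diamonds for Chd3 carry no interval because Chd3 chose the family. The intervals of the 9 tested genes lie within -0.35 and 0.29 on the left and within -0.21 and 0.20 on the right.

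Chd1 and Chd2 are the members that travel with transcribing polymerase and reset nucleosomes behind it. Chd1 (chr17:15704967-15772610, plus strand) was read at 94.5 and 101 CPM in PARP1 WT against 96.0 and 96.0 in PARP1CKO, and 95.7 and 96.7 in PARP2 WT against 90.6 and 96.3 in PARP2CKO. The groups overlapped in both lines. Its log2 fold change was -0.03 with PARP1 deletion (95% confidence interval -0.13 to 0.08) and -0.04 with PARP2 deletion (-0.15 to 0.06). Leaving out 1 library at a time moved these values between -0.08 and 0.02 and between -0.09 and 0.00.

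Chd2 (chr7:73426638-73541830, minus strand) was read at 95.6 and 93.5 CPM in PARP1 WT against 96.0 and 97.6 in PARP1CKO, and 94.9 and 92.0 in PARP2 WT against 87.4 and 86.9 in PARP2CKO. Like Chd3, it was above its controls in both PARP1CKO libraries and below them in both PARP2CKO libraries, on a smaller scale. Of all genes tested, 6.62% had non-overlapping groups in both deletions in opposite directions. The log2 fold change was 0.03 with PARP1 deletion (95% confidence interval -0.05 to 0.12, adjusted p = 0.756) and -0.10 with PARP2 deletion (-0.19 to -0.02, adjusted p = 0.927 by edgeR's quasi-likelihood test). The difference between the deletions was -0.14 (-0.26 to -0.01, adjusted p = 0.616 by edgeR) and did not pass the adjusted threshold. The noncoding gene 1810026B05Rik, named Chaserr in RefSeq and known to restrain Chd2 in cis, shares 2628 exon bases with Chd2 on the same strand, which is 18.4% of the Chd2 exons, so reads there could have been left out or assigned to either gene. It was read at 10.7 to 15.2 CPM, with log2 fold changes of -0.15 (adjusted p = 0.642) and -0.11 (adjusted p = 0.968) in the PARP1 and PARP2 deletions. When each library was left out in turn, these values ran from -0.29 to -0.02 and from -0.26 to 0.03.

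Chd6, Chd7, Chd8 and Chd9 form the subfamily with BRK domains. Chd7 (chr4:8690406-8867659, plus strand), the gene mutated in CHARGE syndrome, was read at 32.1 and 30.6 CPM in PARP1 WT against 33.1 and 36.6 in PARP1CKO, and 31.4 and 31.0 in PARP2 WT against 30.5 and 31.0 in PARP2CKO. The 2 PARP1CKO libraries were the highest of the 8. Its log2 fold change was 0.15 with PARP1 deletion (95% confidence interval 0.02 to 0.29, adjusted p = 0.390 by edgeR's quasi-likelihood test) and -0.02 with PARP2 deletion (-0.15 to 0.11). Without PARP1CKO replicate 2 the PARP1 value was 0.08. The difference between the deletions was -0.17 (-0.36 to 0.01, adjusted p = 0.676).

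Chd8 (chr14:52198151-52257780, minus strand), a binder of beta-catenin, was read at 153 and 151 CPM in PARP1 WT against 150 and 149 in PARP1CKO, and 145 and 142 in PARP2 WT against 144 and 148 in PARP2CKO. Its log2 fold change was -0.02 (95% confidence interval -0.11 to 0.06) and 0.02 (-0.06 to 0.10) in the PARP1 and PARP2 deletions. Chd8 lies 1377 kb from Parp2 on the same chromosome. Within 2 Mb of Parp2, 31 genes other than Parp2 passed the filter, Chd8 among them, and none was called in either deletion. Of these, 5 and 1 (16.1% and 3.23%) had an unadjusted p under 0.05 in PARP1CKO and PARP2CKO, against 11.3% and 4.83% of all genes by the same test. The 1 gene in PARP2CKO was Rpph1, 0.074 kb from Parp2, with a log2 fold change of -2.36. Supt16, the gene next to Chd8, had a log2 fold change of -0.03 with PARP2 deletion.

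Chd6 (chr2:160946978-161109075, minus strand) was read at 43.1 and 46.2 CPM in PARP1 WT against 44.3 and 46.1 in PARP1CKO, and 40.3 and 40.9 in PARP2 WT against 38.5 and 39.1 in PARP2CKO. All 4 libraries of the PARP1 line lay above all 4 of the PARP2 line, and the share of all genes so separated was not counted. Chd6 was not called in PARP2 WT against PARP1 WT (quasi-likelihood adjusted p = 0.175). There 18.9% of all genes had an unadjusted p under 0.05. The log2 fold change with deletion was 0.02 (95% confidence interval -0.09 to 0.13) in the PARP1 line and -0.07 (-0.18 to 0.04) in the PARP2 line. Chd9 (chr8:90828352-91054516, plus strand) was read at 61.4 and 68.6 CPM in PARP1 WT against 66.0 and 67.1 in PARP1CKO, and 69.1 and 65.7 in PARP2 WT against 66.2 and 67.0 in PARP2CKO. Its groups overlapped in both lines, with log2 fold changes of 0.03 (-0.09 to 0.16) and -0.02 (-0.14 to 0.11). The PARP1 value was -0.05 without PARP1 WT replicate 1 and 0.11 without PARP1 WT replicate 2 for Chd9, and -0.04 and 0.06 for Chd6.

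Over the 9 tested genes, none was called in PARP1CKO against PARP1 WT by the quasi-likelihood test, the likelihood-ratio test or DESeq2. The quasi-likelihood test called 0.106% of all genes, and the tests called 14, 146 and 86 genes in that order. At an unadjusted p under 0.05 there were 2 of the 9 (Chd7 and Smarca5), against 11.3% of all genes. The groups did not overlap for 6 of the 9, against 41.2% of all genes. The median log2 fold change was -0.02, against 0.01 over all genes, with 4 genes higher and 5 lower.

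In PARP2CKO against PARP2 WT, 0 of the 9 were called by these 3 tests, against 0.0530% of all genes by the quasi-likelihood test. Over all genes the tests called 7, 39 and 27 in the same order. Chd2 was the 1 gene with an unadjusted p under 0.05, against 4.83% of all genes. The groups did not overlap for 3 of the 9 (Chd2, Chd6 and Smarca5), against 37.2%. The median log2 fold change was -0.02, against -0.00 over all genes, with 2 genes higher and 7 lower.

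The difference between the deletions, an interaction term, was called for 0 of the 9 by any of the 3 tests, against 0.0152% of all genes by the quasi-likelihood test. Over all genes the tests called 2, 72 and 45 in the same order. Chd2 was again the 1 gene at an unadjusted p under 0.05, against 7.69%. The mean of both deletion effects was likewise called for 0 of the 9, against 0.106%, and Smarca5 was the 1 gene at an unadjusted p under 0.05, against 9.17%. The 95% confidence intervals of the difference reached from -0.36 to 0.42 over the 9 genes.

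The Cre-free libraries of the floxed lines were compared in the same way. PARP2 WT against PARP1 WT called 3.16% of all genes and 0 of the 9, with 18.9% of all genes and 1 of the 9 (Chd6) at an unadjusted p under 0.05. The log2 difference of Chd6 was -0.14 (95% confidence interval -0.25 to -0.03, adjusted p = 0.175 by edgeR's quasi-likelihood test). It was -0.19 without PARP1 WT replicate 1 and -0.09 without PARP1 WT replicate 2. Of the 9 genes 8 were lower in PARP2 WT, with a median log2 difference of -0.06 against 0.00 over all genes. The mouse line and any difference in handling between the lines cannot be told apart.

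Genes of PAR metabolism and of other remodeling complexes were counted beside the family. Of 16 listed enzymes and readers of PAR, 13 were in the table. Parp1 fell with its own deletion, Parp2 fell with its own deletion, and the quasi-likelihood test called no other gene of the list in either, against 0.106% and 0.0530% of all genes. At an unadjusted p under 0.05 there were 3 of the 13 with PARP1 deletion (Parp1, Parp3 and H2afy) and 1 with PARP2 deletion (Parp2), against 11.3% and 4.83% of all genes. Parp1 had a log2 fold change of 0.37 with PARP2 deletion (adjusted p = 0.954), which was 0.76 without PARP2 WT replicate 1 (adjusted p = 0.00226, called) and 0.07 without PARP2 WT replicate 2. Parp3, another DNA-dependent PARP, had a log2 fold change of 0.18 with PARP1 deletion (adjusted p = 0.253) and -0.07 with PARP2 deletion (adjusted p = 0.954). Parg, which cuts PAR chains, had -0.07 (adjusted p = 0.670) and -0.04 (adjusted p = 0.977). H2afy, the gene of the histone macroH2A whose macrodomain can also bind PAR metabolites, had -0.11 (adjusted p = 0.441) and -0.01 (adjusted p = 0.995). Of 20 other ATPases of the same SNF2 class that passed the filter, none was called in either deletion, with 0 and 1 at an unadjusted p under 0.05. Of 19 SWI/SNF subunits none was called, with 1 and 1 at that level. Over all genes the shares were 11.3% and 4.83%. The medians of these SNF2 and SWI/SNF lists lay between -0.02 and -0.01 in both deletions, against 0.01 and -0.00 over all genes.

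The chromosomal neighborhood of Chd3 was then examined for genes that moved with it. Within 1 Mb on either side, 63 other genes passed the filter and none was called in either deletion by the quasi-likelihood test, while 9 and 10 of them (14.3% and 15.9%) had an unadjusted p under 0.05 in PARP1CKO and PARP2CKO, against 11.3% and 4.83% of all genes. The nearest genes with a position in the annotation had log2 fold changes with PARP1 deletion of -0.04 for Kcnab3, 0.10 for Trappc1, 0.00 for Cntrob, 0.10 for Cyb5d1 and -0.03 for Naa38. With PARP2 deletion the same genes had 0.21, -0.05, -0.10, -0.03 and -0.07. Kdm6b, a histone demethylase gene 29.1 kb from Chd3, had 0.27 with PARP1 deletion and 0.02 with PARP2 deletion. Trappc1, Cyb5d1 and Cntrob thus had the signs of Chd3 at a smaller size, Cntrob at only 0.002 with PARP1 deletion. None of them passed the test, and the share of all genes with these signs was not counted. Per1, a circadian clock gene 233 kb from Chd3 that was picked after its values were seen, had 0.13 with PARP1 deletion and -0.13 with PARP2 deletion, each at an unadjusted p under 0.05 and neither called.

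**Figure D4:**
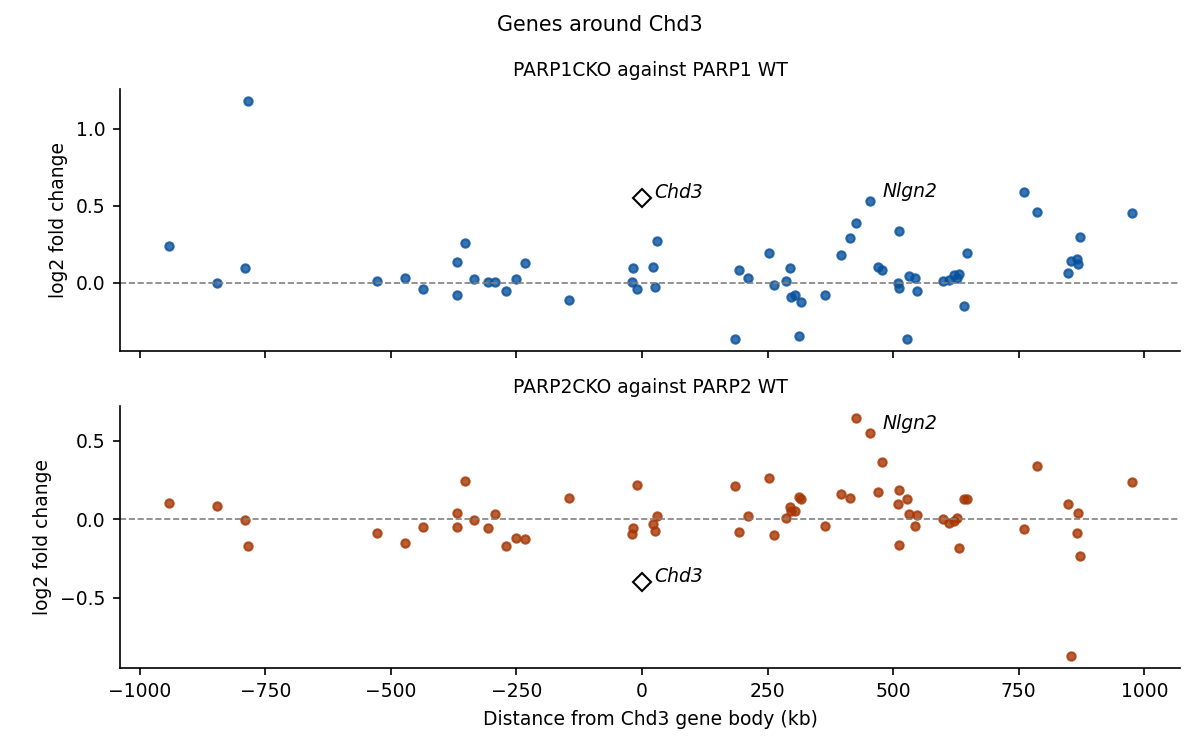
Log2 fold change of each gene within 1000 kb of Chd3 against its distance from the Chd3 gene body in kb, for PARP1 deletion (top) and PARP2 deletion (bottom), with Chd3 as an open diamond. The 6 plotted genes nearest to Chd3 lie between -0.10 and 0.27 in both panels, and Nlgn2 is above 0 in both. Chd3os is not plotted, since no position for it was used here.

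2 genes of that region were singled out after their values were seen. Chd3os, named as the opposite strand transcript of Chd3, was read at 2.43 and 2.24 CPM in PARP1 WT against 2.78 and 3.89 in PARP1CKO, and 2.35 and 2.33 in PARP2 WT against 2.40 and 2.09 in PARP2CKO. Its log2 fold change was 0.51 with PARP1 deletion (SE 0.185, adjusted p = 0.365) and -0.06 with PARP2 deletion (SE 0.185, adjusted p = 0.990), and the strand setting of the counting is not given in the sources used here, so its reads and those of Chd3 may not be separate. The PARP1 value of Chd3os was 0.25 without PARP1CKO replicate 2 and 0.74 without PARP1CKO replicate 1. Nlgn2, which encodes a synaptic adhesion protein and lies 454 kb from Chd3, was read at 4.37 and 4.43 CPM in PARP1 WT against 6.21 and 6.53 in PARP1CKO, and 5.17 and 4.998 in PARP2 WT against 6.62 and 8.26 in PARP2CKO. It was higher in all 4 CKO libraries, with log2 fold changes of 0.53 (adjusted p = 0.229) and 0.55 (adjusted p = 0.538), and did not pass the quasi-likelihood test in either deletion. The likelihood-ratio test called it in both.

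The genes whose log2 CPM followed Chd3 most closely over the 8 libraries were found by Pearson correlation among the 13196 other genes tested. They included Vars, a valyl-tRNA synthetase gene (0.971), the kinase genes Mapk7 (0.969) and Dyrk1b (0.959) and the Myc partner gene Max (0.954). The correlation does not measure the size of a change. Vars ranged from 98.1 to 106 CPM, Max from 118 to 135, Mapk7 from 56.8 to 69.6 and Dyrk1b from 4.66 to 6.57. Chd3 itself ranged from 37.7 to 69.4 CPM. For Chd1l the closest were Nap1l3 (0.956), the RNA polymerase subunit gene Polr3e (0.950), Gemin6 (0.937), Fgfbp3 (0.933) and Slc19a1 (0.933). Within the family, Chd4 and Chd8 were the most alike pair at 0.83, and Chd3 reached 0.74 with Chd7 and 0.71 with Chd2. These are descriptions over 8 libraries that share groups and mouse lines.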

How the data were processed

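Total RNA of IMCs (4 µg) was sequenced as 75-base single-end stranded libraries, 8 in all. Per the labels and the study's methods, the authors checked reads with FastQC 0.11.2, trimmed them, aligned them to mm10 with TopHat2 2.0.12, marked duplicates with Picard 1.127 and counted reads per gene with featureCounts. The deposited unit is the raw count per gene. The annotation, the strand setting and the use of marked duplicates are not given in the sources used here. All columns of the table were assigned to the 8 libraries.

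Counts were filtered with filterByExpr, scaled by TMM (factors 0.965 to 1.03) and tested in edgeR 4.0.16 (R 4.3.3, limma 3.58.1) by glmQLFit and glmQLFTest with a mean for each of the 4 groups, all 8 libraries and Benjamini-Hochberg adjustment over 13197 genes at 0.05. Fold changes are edgeR log2 estimates with 95% intervals from the same fit. The script was tested on simulated data. Depth was 37852450 to 61845125 counts per library. Exact permutation of 2 against 2 cannot go below p = 0.333 (two-sided), so single genes were tested only in the fit across all genes. Replicates differed by a chi-square of 8.56 to 12.9 per gene, above sampling noise, and were counted separately. Exon lengths and positions came from GENCODE M21 on GRCm38, matched by symbol. Alternatives were the likelihood-ratio test, DESeq2 1.42.0, other scalings and filters, a replicate block, fits of only the libraries compared, and leaving out each library.

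The genes named are all 10 members, Parp1 and Parp2, listed genes that were called, the 5 genes most correlated with Chd3 and with Chd1l, and genes adjoining or overlapping Chd3 and Chd8. Genes outside this rule are named as chosen after their values were seen, or as examples of a list. 1 gene that the rule names is not reported here. The members, gene lists and tests were chosen with earlier results of these data known.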

Additional observations from a re-analysis of the deposited data

Results flagged for a closer look

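The difference between the deletion effects was -0.95 on the log2 scale for Chd3 and -0.14 for Chd2. In both genes every PARP1CKO library was above both PARP1 WT libraries and every PARP2CKO library below both PARP2 WT libraries. Such opposite, non-overlapping groups were present in 6.62% of all genes tested. For Chd3 the difference was not tested, because the gene was selected on those contrasts. For Chd2 the interaction term had an adjusted p of 0.616 in edgeR's quasi-likelihood test and did not pass.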

How the results depend on the processing

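The count of called genes among the 9 tested members stayed at 0 in every comparison under every setting run. The most genes called in any setting was 910, of 13197 tested. With so few calls over all genes, a 0 among 9 was likely in advance and says little about stability. Of 770 member fold changes under the alternatives, 758 kept their sign or moved by less than the standard error, and 12 changed sign by more or, for Chd3, moved by more. The sign changed in 31. None of the 9 tested members was called, so no sign change among them belonged to a called gene. For Chd3, which was not tested, the mean of both deletions turned to -0.003 without PARP2CKO replicate 1. Over all genes, the likelihood-ratio test called 146 genes in PARP1CKO and 39 in PARP2CKO, DESeq2 86 and 27 and the fit without a filter on low counts 101 and 26, against 14 and 7. For the difference between the deletions, their mean and PARP2 WT against PARP1 WT, these fits called 72, 87 and 910, then 45, 60 and 551, then 61, 71 and 872 genes, against 2, 14 and 417. Leaving out each library gave 1 to 34 and 4 to 19 in the deletions, and 1 to 16, 3 to 25 and 85 to 566 in the other comparisons. Replicate numbers are shared by the groups, but deviations of same-numbered libraries correlated at -0.13 in the PARP1 line and 0.15 in the PARP2 line, so the numbers were not taken to pair samples. With a replicate block 17 and 11 genes were called in PARP1CKO and PARP2CKO, 1 in the difference and 16 in the mean, and no tested member's call changed. With crossed numbers, an alternative chosen after seeing the data, 12 and 7 were called in the deletions, 10 in the difference and 8 in the mean. The block could not be fitted for PARP2 WT against PARP1 WT. Chd1l had the fewest counts and the widest intervals of the 9, and the part of depth in that width was not tested.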
